A study of Mus musculus with 6 samples.

Results

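The genes described here encode the extracellular and cell-surface metalloproteases of the MMP, ADAM and ADAMTS families and their TIMP inhibitors. They were chosen by name and biotype from the deposited gene table: protein-coding genes called Mmp, Adam, Adamts or Timp followed by a number, which gave 78 of 54532 genes. These were 22 MMPs, 33 ADAMs, 19 ADAMTSs and 4 TIMPs. RNA was sequenced from stromal cells isolated from mouse compact bone, by chopping femurs and tibias, digesting the chips with collagenase, culturing them and sorting cells by a fluorescent signal. All mice carried Prx1-Cre, a recombinase active in limb mesenchyme, and a ROSA-YFP reporter. WT mice had the genotype Zeb1wt/wt and the mutant, named Zeb1Prx1, was Zeb1fl/fl, so that Cre deletes Zeb1, a zinc-finger repressor, in the Prx1 lineage. Each genotype had 3 untreated libraries, and the age of the mice and whether replicates are separate animals are not given in the labels, so that the spread behind each p-value may be technical.

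MMPs and ADAMs share a catalytic domain that holds a zinc ion. Most MMPs are secreted as inactive precursors and cleave collagens, gelatin, proteoglycans and other matrix proteins, while the membrane-type MMPs act at the cell surface. ADAMs are membrane proteins, several of which release the outer part of other membrane proteins (shedding), and ADAMTSs are secreted enzymes that cleave proteoglycans or process procollagens. TIMPs bind the active sites of these enzymes and block them. In bone, Mmp13 is made by hypertrophic chondrocytes and osteoblasts, Mmp14 and Mmp2 remodel collagenous matrix, and Mmp9 is made by osteoclasts.

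Values are FPKM, fragments per kilobase of gene length scaled to library size, as deposited, in the order of replicates 1, 2 and 3; means are ± SD with n = 3 per genotype. Libraries held 14724357 to 18354894 assigned fragments, recovered from the FPKM values. Genotypes were compared by limma on log2(FPKM + 1), with p adjusted over all 12534 genes that reached 1 FPKM in at least 3 of the 6 libraries. Zeb1 had 6.61 to 10.3 FPKM in the WT and 1.59 to 2.84 in the Zeb1Prx1 libraries. Its log2 change, Zeb1Prx1 minus WT, was -1.53 (SE 0.22, limma adjusted p = 0.229). At an adjusted p under 0.05 the test thus did not call the deleted gene itself. Stromal markers were present (10 of 10 tested), and so were macrophage and monocyte markers (12 of 12 tested), although the cells had been sorted. Over the libraries, the stromal list summed to 840 to 3991 FPKM and the macrophage and monocyte list, led by Lyz2, to 8489 to 18340. No value given here can be assigned to a cell type. Replicate 2 of Zeb1Prx1 had the highest FPKM sum (372566, against 278987 to 312038 in the others) and the lowest limma library weight (0.226). Xist, the RNA that silences one X chromosome in female cells, had 26.8 to 40.4 FPKM in WT and 0.00309 to 12.6 in Zeb1Prx1, so sex and genotype cannot be told apart for genes that differ between the sexes.

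The promoters of 5 members are shown, those of genes whose levels are given in full and 1 neighbour: Mmp13 and Mmp3, neighbours on chromosome 9 that ranged widely between libraries, their near-silent neighbour Mmp10, and Adam10 and Adam17, the main sheddases. Each sequence is the 250 bases before the gene's start in RefSeq, build GRCm38.p6 (the build also called mm10), 5′ to 3′ on the gene's strand. Capitals mark matches to TGANTCA (the AP-1 motif) or TGTGGT (the core bound by RUNX factors), searched on both strands.
Mmp13 (chr9:7272264-7272513, plus strand): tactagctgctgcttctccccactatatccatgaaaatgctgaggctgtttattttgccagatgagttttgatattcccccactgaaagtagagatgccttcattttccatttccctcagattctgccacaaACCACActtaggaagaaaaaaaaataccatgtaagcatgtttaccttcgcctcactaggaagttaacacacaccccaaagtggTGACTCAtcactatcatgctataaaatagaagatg
Mmp3 (chr9:7445572-7445821, plus strand): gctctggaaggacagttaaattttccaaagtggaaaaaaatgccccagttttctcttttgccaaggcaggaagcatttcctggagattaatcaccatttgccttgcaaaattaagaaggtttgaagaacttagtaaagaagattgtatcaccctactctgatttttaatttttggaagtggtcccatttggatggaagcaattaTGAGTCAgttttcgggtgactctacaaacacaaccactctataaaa
Mmp10 (chr9:7502092-7502341, plus strand): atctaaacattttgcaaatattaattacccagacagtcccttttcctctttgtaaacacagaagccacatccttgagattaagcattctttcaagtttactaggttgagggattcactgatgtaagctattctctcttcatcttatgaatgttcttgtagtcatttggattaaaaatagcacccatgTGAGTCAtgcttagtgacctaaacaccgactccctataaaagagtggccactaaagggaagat
Adam10 (chr9:70678732-70678981, plus strand): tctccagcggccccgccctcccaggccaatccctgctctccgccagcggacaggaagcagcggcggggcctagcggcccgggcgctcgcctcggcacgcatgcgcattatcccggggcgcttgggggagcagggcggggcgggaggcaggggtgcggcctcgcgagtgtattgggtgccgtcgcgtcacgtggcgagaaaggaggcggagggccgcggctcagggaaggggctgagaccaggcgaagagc
Adam17 (chr12:21373633-21373882, minus strand): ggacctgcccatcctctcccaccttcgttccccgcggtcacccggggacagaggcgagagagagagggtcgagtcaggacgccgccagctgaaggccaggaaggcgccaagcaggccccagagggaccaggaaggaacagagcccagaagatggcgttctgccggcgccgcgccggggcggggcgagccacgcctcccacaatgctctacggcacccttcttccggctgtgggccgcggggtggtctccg

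The MMP promoters held 1 AP-1 match each, as TGACTCA at 35 to 29 bases before the start in Mmp13, TGAGTCA at 46 to 40 in Mmp3 and TGAGTCA at 63 to 57 in Mmp10. Mmp13 also held the RUNX core, as ACCACA, at 118 to 113. RefSeq promoters were found for 48 of the 78 members (53 starts, since some genes have more than 1). TGANTCA occurred in 11 of these 53 and in 6.75% of all 32851 promoters of the same length. TGTGGT occurred in 11 of the 53 and in 14.05% of all. The sequence CACCTG, an E-box bound by ZEB proteins, was searched as well and occurred in 10 of the 53 and in 17.2% of all. No E-box match lay in the 5 sequences shown. The Adam10 and Adam17 promoters held none of the 3 motifs and were rich in G and C (74.0% and 70.4%, with 29 and 23 CpG pairs), against 40.4% and 37.6% in Mmp13 and Mmp3, with 1 CpG each. The median over all promoters was 52.4%. A match is a description of letters and not a measured binding site.

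No member passed the test over all genes. Of the 78 members, 31 reached the level needed for testing (11 MMPs, 9 ADAMs, 8 ADAMTSs and 3 TIMPs). Limma called 0 of the 31 at an adjusted p under 0.05 (lowest 0.275, for Mmp13), where it called 0% of all tested genes, as did voom, a limma method for counts, run on the recovered fragments. Unadjusted p-values were under 0.05 for 7 of 31 members (22.6%), against 15.1% of all tested genes. Of these 7, 2 members were higher in Zeb1Prx1 (Mmp13 and Timp1) where 8.15% of all tested genes were, and 5 were lower (Adam8, Adam10, Adam17, Adam19 and Mmp16) where 6.98% of all tested genes were. That is 6.45% and 16.1% of the 31. The count of 7 became 3 without WT replicate 3 and without Zeb1Prx1 replicate 3, 4 without Zeb1Prx1 replicate 1, and 14 with library weights, where 30.8% of all tested genes had such a p and 3.57% passed after adjustment, none of them a member. Genotypes did not overlap for 5 members (16.1%), against 24.4% of all tested genes. The higher side held 1 member (Mmp13, against 12.6% of all tested genes) and the lower side 4 (Adam10, Adam17, Adam19 and Mmp16, against 11.8%), so these shares were below or near the background.

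By family, the signs differed. The log2 change (Zeb1Prx1 minus WT) was below 0 for 8 of 9 ADAMs, with a median of -0.40, and for 8 of 8 ADAMTSs, with a median of -0.32. Among MMPs it was above 0 for 6 of 11 (median 0.10) and among TIMPs for 2 of 3 (median 1.20). Over all tested genes the median was 0.02, and 48.1% were below 0. The signs of Adamts1, Adamts4 and Adamts5 turned when single libraries were left out, as given further on. Scaling every library to the same FPKM sum moved the median of all genes to -0.12 and that of the ADAMs to -0.52, and Mmp14 then had a log2 change below 0. The median of the MMPs turned to -0.013 on that scale and to -0.019 without the filter, and that of the TIMPs, with Timp4 included, was 0.61 without the filter. Of the 31, 22 were at 1 FPKM or more in all 6 libraries and none was tested through libraries of a single genotype. However, 4 (Adam19, Adam33, Adamts6 and Adamts14) reached it in 3 WT and fewer than 3 Zeb1Prx1 libraries. All 4 had a log2 change below 0. The reverse held for 1 (Mmp3), above 0. Adam23, Adamts12 and Mmp8 reached 1 FPKM in 2 WT libraries and 1 Zeb1Prx1 library, with log2 changes of -0.43, -0.62 and 0.10. The counts of signs are therefore not independent of the filter. Without the filter, where genes near 0 enter, the ADAM median was -0.084.

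**Figure D1:**
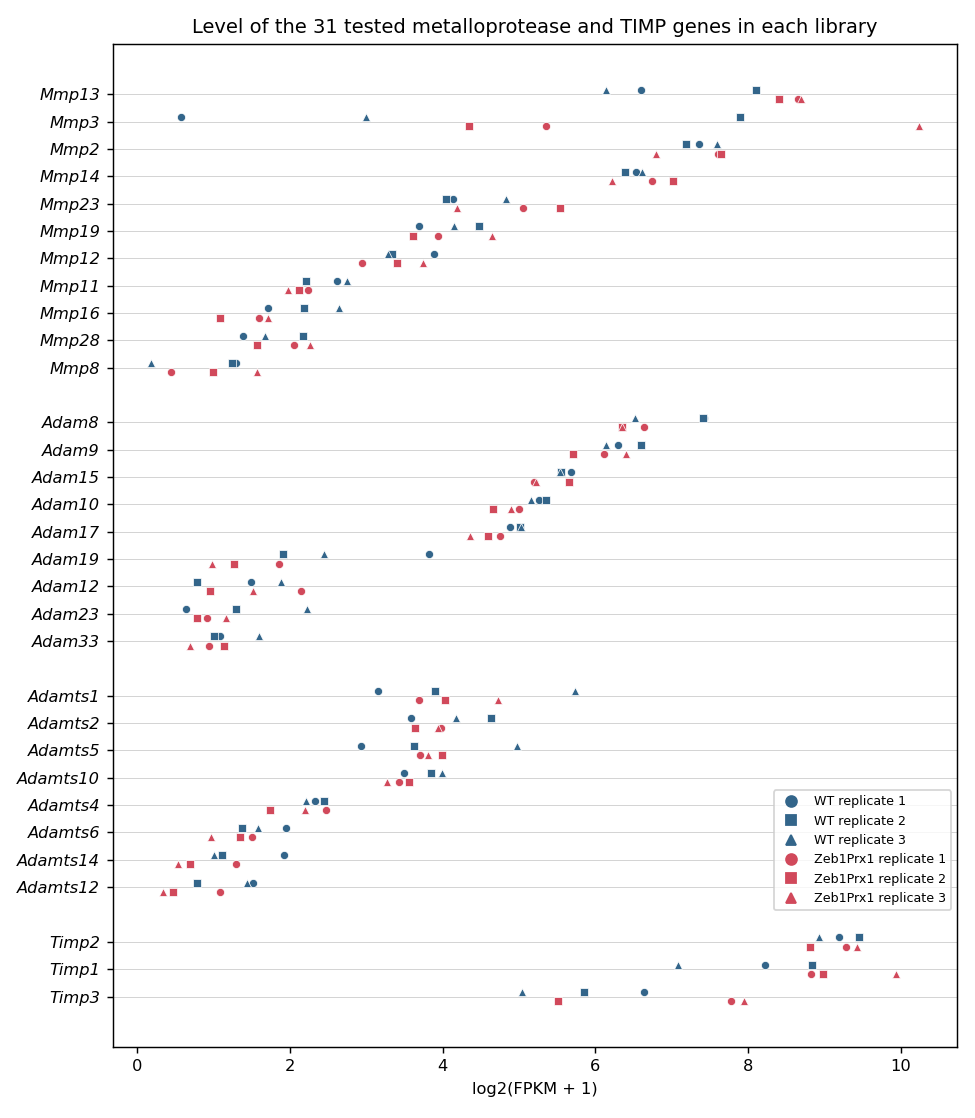
Level of each tested member, as log2(FPKM + 1) on the horizontal axis, in 3 WT libraries (blue) and 3 Zeb1Prx1 libraries (red), with the shape giving the replicate and genes grouped by family in order of mean FPKM. Mmp3 ranged most widely, from 0.485 to 1206 FPKM, while Timp2 lay between 449 and 700 in all libraries.

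**Figure D2:**
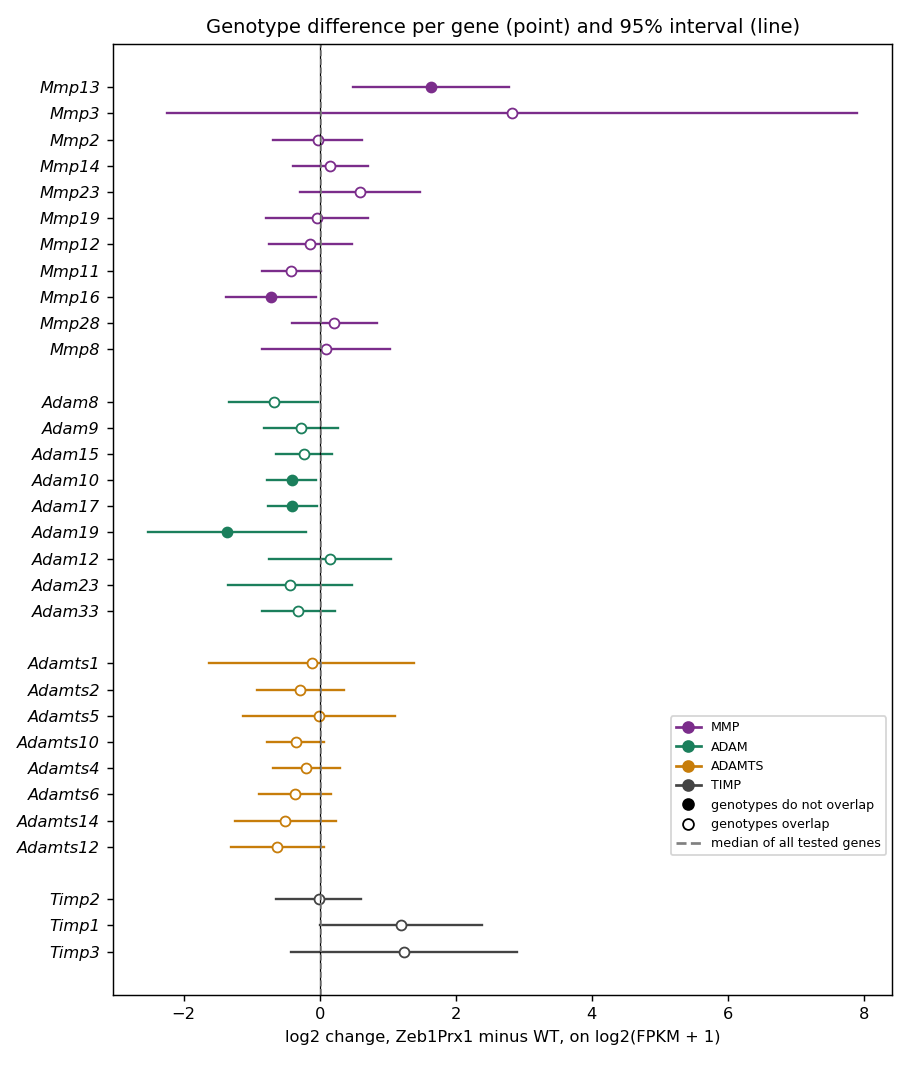
Log2 change of each tested member (points) with its 95% interval (lines), Zeb1Prx1 minus WT on log2(FPKM + 1); filled points mark the 5 genes whose genotypes do not overlap, and the dashed line is the median of all tested genes (0.02). ADAM and ADAMTS points lie at or left of 0 apart from Adam12, and none of the 31 passed after adjustment.

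Among the collagenases, Mmp13 was abundant and higher in every mutant library. Mmp13 (ENSMUSG00000050578, chromosome 9, 7272514 to 7283331), which cleaves fibrillar collagens, above all the collagen of cartilage, had 95.7, 273 and 69.4 FPKM across the WT libraries and 400, 337 and 414 across the mutant ones. The mutant libraries were close to each other and lay above each WT library, while WT replicate 2 stood well above the other two. The means were 146 ± 111 and 384 ± 41.2, a 2.63-fold difference, or 4.65-fold without WT replicate 2, where the WT mean was 82.5. The log2 change was 1.64 (SE 0.48, 95% interval 0.50 to 2.78, limma adjusted p = 0.275). With all libraries scaled to the same FPKM sum, the genotypes of Mmp13 overlapped, and 0 members were without overlap on the higher side (7.93% of all genes tested on that scale) and 8 on the lower (16.3%). Mmp8, the collagenase of neutrophils, was near the limit of testing (0.134 to 1.97 FPKM over the 6 libraries, with overlap), and neutrophil and mast cell markers were near 0 (0 of 10 tested, 3 at 0 fragments in all libraries). The remaining collagenase gene, Mmp1b, had 4 fragments in all libraries together. Osteoblast markers lay on the same side of 0 as Mmp13, with 8 of 8 tested above 0 (median log2 change 0.71), 1 at an unadjusted p under 0.05 (8.15% of all tested genes) and sums of 3281, 5995 and 5824 FPKM for WT and 6189, 6071 and 4964 for Zeb1Prx1, with overlap. That marker was Ibsp, a mineralised-matrix protein, with 5.52, 6.13 and 3.15 against 42.4, 20.98 and 13.8 FPKM, without overlap (limma adjusted p = 0.258). As a mean over the osteoblast list, log2(FPKM + 1) was 3.81, 3.71 and 3.30 against 4.84, 4.49 and 3.45. Mutant replicate 3, the highest for Mmp13, thus lay below WT replicates 1 and 2 in this mean. The part of the osteoblast markers in the Mmp13 values was not tested.

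The stromelysin Mmp3 varied widely between libraries of the same genotype. Mmp3 (ENSMUSG00000043613, chromosome 9, 7445822 to 7455975), which cleaves proteoglycans and activates other MMPs, had 0.485, 236 and 6.94 FPKM across the WT libraries and 39.8, 19.3 and 1206 across the mutant ones. WT replicate 2 lay above 2 of the 3 mutant libraries, so the genotypes overlapped. The mutant mean of 422 ± 680 rested on replicate 3 and was 29.6 without it, while the WT mean of 81.1 ± 134 was 3.71 without WT replicate 2. The log2 change was 2.83 (SE 2.14, limma adjusted p = 0.512). In rank among all genes, Mmp3 was number 19 in Zeb1Prx1 replicate 3 and number 14115 in WT replicate 1. The libraries with the most Mmp3 in each genotype also had the highest summed stromal markers, at 840, 1742 and 1508 FPKM across the WT libraries and 1929, 1529 and 3991 across the mutant ones. The part of this marker level in the Mmp3 values was not tested. The other stromelysins were low: Mmp11 had 4.83 ± 1.07 against 3.33 ± 0.398 FPKM, with overlap, and Mmp10 had 51 fragments in all libraries together.

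Mmp13 and Mmp3 belong to a run of 9 member genes within 427 kb of chromosome 9. From Mmp13 outward these are Mmp12, Mmp1b, Mmp3, Mmp10, Mmp8, Mmp27, Mmp20 and Mmp7. A match to TGANTCA lay in a promoter of 7 of these 9 genes (Mmp8 and Mmp27 had none), including the near-silent Mmp10, Mmp1b, Mmp20 and Mmp7. In Mmp20 it read TGAATCA, unlike the TGAGTCA or TGACTCA of the others. In Mmp12 it lay before a later start (7347124 to 7347373) and not before the first (7344147 to 7344396). In Mmp7 it lay before the first start and not the later one. Neighbours did not share a level: Mmp12, the elastase of macrophages, 71.9 kb from Mmp13, had 13.8, 9.09 and 8.77 FPKM across the WT libraries and 6.70, 9.58 and 12.4 across the mutant ones. Its highest library was WT replicate 1, the library with the least Mmp3. Mmp20, the enamel protease, had 0 fragments in every library, and Mmp7 had 2 in all.

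**Figure D3:**
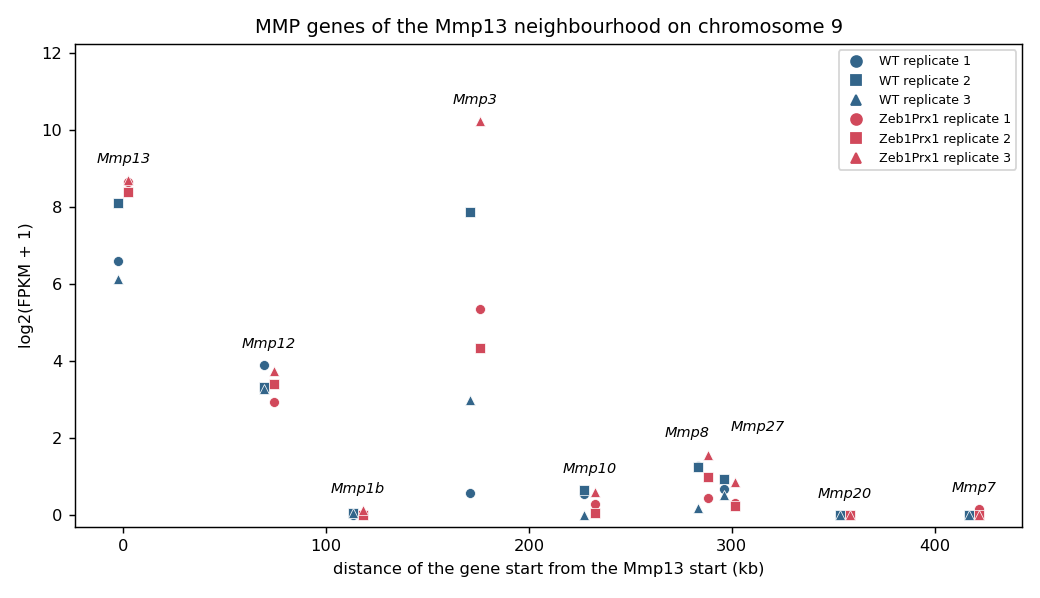
The 9 MMP genes of the chromosome 9 neighbourhood by distance of their start from that of Mmp13, in kb (horizontal), and level as log2(FPKM + 1) (vertical), with 1 point per library (WT blue, Zeb1Prx1 red). Mmp13, Mmp3 and Mmp12 stand above the other 6 genes in most libraries, and only Mmp13 has all red points above all blue ones.

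The gelatinases differed in level and in pattern. Mmp2, which is made by stromal cells and degrades denatured collagen, had 162, 145 and 192 FPKM across the WT libraries and 193, 200 and 110 across the mutant ones, with means of 166 ± 23.6 and 167 ± 49.8. Mutant replicate 3 was the lowest and mutant replicate 2 the highest, so the genotypes overlapped throughout (log2 change -0.03, 95% interval -0.68 to 0.62). Mmp9 was too low for the main test and did not overlap between genotypes. It had 51, 49 and 137 fragments in WT (0.787, 0.900 and 2.52 FPKM) and 6, 16 and 10 in Zeb1Prx1 (0.105, 0.251 and 0.185 FPKM). Every mutant library lay below every WT library, and WT replicate 3 held more than the other WT libraries together. Scaled to all assigned fragments, the WT level was 7.77-fold the mutant level, and in mean FPKM it was 4.68-fold without WT replicate 3. Without the filter, limma gave an unadjusted p of 0.0136 and an adjusted p of 0.449, where 4.88% of genes were lower at an unadjusted p under 0.05. Of 6 tested osteoclast markers, 2 were above 0 and 4 below (median log2 change -0.45). Tnfrsf11a, the receptor for RANKL, had 11.7 ± 0.875 against 6.95 ± 1.59 FPKM and Atp6v0d2, a proton pump subunit, 5.89 ± 0.468 against 3.83 ± 0.481, while Calcr, the calcitonin receptor of mature osteoclasts, had 0 FPKM in 5 libraries and 0.0166 in the other. Itgb3 had 4.33 ± 0.682 against 2.70 ± 0.747 and Nfatc1 12.0 ± 1.29 against 9.09 ± 2.03, both with overlap. The 2 above 0 were Acp5 (1.44 ± 0.447 against 3.11 ± 2.05) and Ctsk (34.1 ± 5.88 against 57.1 ± 8.64). Without overlap, 1 tested marker was higher (Ctsk) and 2 were lower (Tnfrsf11a and Atp6v0d2), where 12.6% and 11.8% of all tested genes were. Among the untested markers, Dcstamp was higher without overlap (0.116 ± 0.0268 against 0.203 ± 0.0485), and Ocstamp and Oscar overlapped. The summed osteoclast markers, led by Ctsk, were 63.8 to 76.1 FPKM in WT and 77.5 to 89.5 in Zeb1Prx1, without overlap. Averaged over the osteoclast list, log2(FPKM + 1) reached 1.92, 2.01 and 1.92 for WT against 1.86, 1.85 and 1.94 for the mutant. The genotypes overlapped in this mean, unlike in the sum. The part of these markers in the Mmp9 values was not tested, nor was that of the macrophage and monocyte markers given further on.

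Of the membrane-type MMPs, Mmp14 was the main transcript. Mmp14 (MT1-MMP), which activates Mmp2 at the cell surface and cleaves collagen itself, had 91.3, 82.5 and 96.3 FPKM across the WT libraries and 106, 129 and 73.7 across the mutant ones. Mutant libraries lay on both sides of the WT values, and replicate 3 was the lowest, as for Mmp2. Mmp16 was lower in the mutant, with 2.28, 3.54 and 5.23 against 2.01, 1.13 and 2.27 FPKM. Its lowest WT and highest mutant library were almost equal (log2 change -0.72, SE 0.28, limma adjusted p = 0.312). Mmp17, anchored to the membrane by a lipid, was under the filter with 181, 77 and 100 fragments in WT and 48, 66 and 8 in Zeb1Prx1. The genotypes did not overlap, and the WT level was 3.08-fold the mutant level after scaling to assigned fragments. Mmp15 had 183 fragments in all, divided evenly (94 in WT and 89 in Zeb1Prx1), and Mmp24 and Mmp25 had under 11 each.

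The remaining MMPs overlapped between genotypes where they could be tested. Mmp23 had 16.6, 15.5 and 27.5 FPKM across the WT libraries and 32.2, 45.2 and 17.3 across the mutant ones, with a log2 change of 0.59 (SE 0.37), and 2 mutant libraries lay above all WT libraries. Mmp19 had 16.6 ± 4.69 against 16.5 ± 6.72 FPKM and Mmp28 2.44 ± 0.969 against 2.96 ± 0.916. Mmp21 had 2, 8 and 1 fragments in WT and 0 in each mutant library, so that most of its fragments came from WT replicate 2. Mmp27 had 71 fragments in WT and 44 in Zeb1Prx1.

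Timp2 and Timp1 had the highest mean FPKM of all members. Timp2, a broad inhibitor that also takes part in the activation of Mmp2, had 583, 700 and 485 FPKM across the WT libraries and 621, 449 and 686 across the mutant ones, with means of 589 ± 108 and 585 ± 122. The ranges largely coincided (log2 change -0.02, 95% interval -0.64 to 0.61). Timp1 (ENSMUSG00000001131, chromosome X, 20870166 to 20874735), an inhibitor induced by growth factors and cytokines, had 296, 457 and 135 FPKM across the WT libraries and 451, 506 and 978 across the mutant ones. WT replicate 2 lay just above mutant replicate 1 and thereby made the genotypes overlap. The mean was 2.18-fold in the mutant, 1.62-fold without its replicate 3, with a log2 change of 1.20 (SE 0.50, limma adjusted p = 0.328). Timp1 lies on the X chromosome, inside the gene Syn1 on the opposite strand, which had 0.959 to 2.01 FPKM, and the part of the Xist difference in the Timp1 values was not tested. Timp3, which is bound to the matrix and also inhibits ADAMs and ADAMTSs, had 98.1, 56.8 and 32.0 FPKM across the WT libraries and 219, 44.7 and 246 across the mutant ones. Mutant replicates 1 and 3 lay above all WT libraries and replicate 2 below 2 of them (log2 change 1.24, SE 0.70, limma adjusted p = 0.405). Without replicate 2 the mutant mean was 232 in place of 170. Timp4 had 6 fragments in all.

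Summed over the families, transcripts of MMPs amounted to 406, 798 and 435 FPKM across the WT libraries and 803, 759 and 1871 across the mutant ones. Those of TIMPs were 977, 1213 and 652 in WT and 1291, 999.9 and 1910 in Zeb1Prx1. The MMP sum was below the TIMP sum in all 6 libraries, at 0.416, 0.658 and 0.667 of it in WT and 0.622, 0.759 and 0.980 in Zeb1Prx1, with overlap. Mmp3 and Mmp13 made up 17.6% to 63.8% of the MMP sum in WT and 46.9% to 86.6% in Zeb1Prx1. These sums are descriptions over chosen members and carry no test.

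ADAM transcripts were lower in sum in each mutant library, at 382, 390 and 287 FPKM across the WT libraries and 269, 234 and 255 across the mutant ones. Adam10 (ENSMUSG00000054693, chromosome 9, 70678997 to 70780229), the sheddase that makes the first cut in Notch receptors after ligand binding, had 37.4, 39.9 and 34.8 FPKM across the WT libraries and 30.99, 24.2 and 28.7 across the mutant ones. Each mutant library lay below each WT library, and the difference was small, 37.4 ± 2.57 against 27.9 ± 3.46 (log2 change -0.41, SE 0.15, limma adjusted p = 0.302). Adam17 (ENSMUSG00000052593, chromosome 12, 21323509 to 21373632), which releases TNF and ligands of the EGF receptor, had 28.4, 31.2 and 31.5 FPKM across the WT libraries and 25.9, 23.2 and 19.6 across the mutant ones. Here too the genotypes did not overlap, with 30.4 ± 1.69 against 22.9 ± 3.16 (log2 change -0.40, SE 0.15, limma adjusted p = 0.309). The gene Iah1 overlaps Adam17 on the opposite strand and had 9.71 and 12.7 FPKM in the mean of WT and Zeb1Prx1; whether counting used strand is not known from the sources used here.

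Adam8, a sheddase of leukocytes and osteoclasts, had the highest mean of the ADAMs. It had 170, 169 and 90.8 FPKM across the WT libraries and 98.0, 80.1 and 80.4 across the mutant ones. WT replicate 3 lay below mutant replicate 1, so the genotypes overlapped (143 ± 45.5 against 86.2 ± 10.3, log2 change -0.68, SE 0.28, limma adjusted p = 0.325). Adam9 had 77.2, 95.7 and 69.5 against 68.0, 51.0 and 83.6 FPKM, and Adam15 had 50.4, 45.7 and 45.2 against 35.8, 49.2 and 36.2. Both, which are widely expressed membrane proteases, overlapped.

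Adam19, a membrane protease best known from heart development, showed the largest negative log2 change of the 31 tested members. It had 13.1, 2.74 and 4.46 FPKM across the WT libraries and 2.62, 1.40 and 0.966 across the mutant ones. The genotypes just failed to overlap, and WT replicate 1 stood far above the rest. The WT mean of 6.78 ± 5.57 was 4.07-fold that of the mutant, 1.66 ± 0.859, and 2.16-fold without WT replicate 1, where the WT mean was 3.60 (log2 change -1.36, SE 0.49, limma adjusted p = 0.2998). Adam12, expressed in mesenchyme and forming muscle and bone, had 1.81, 0.726 and 2.67 against 3.41, 0.934 and 1.86 FPKM, the single ADAM with a log2 change above 0 (0.15, SE 0.38). Adam23, which lacks protease activity, and Adam33 lay between 0.558 and 3.67 FPKM and overlapped.

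**Figure D4:**
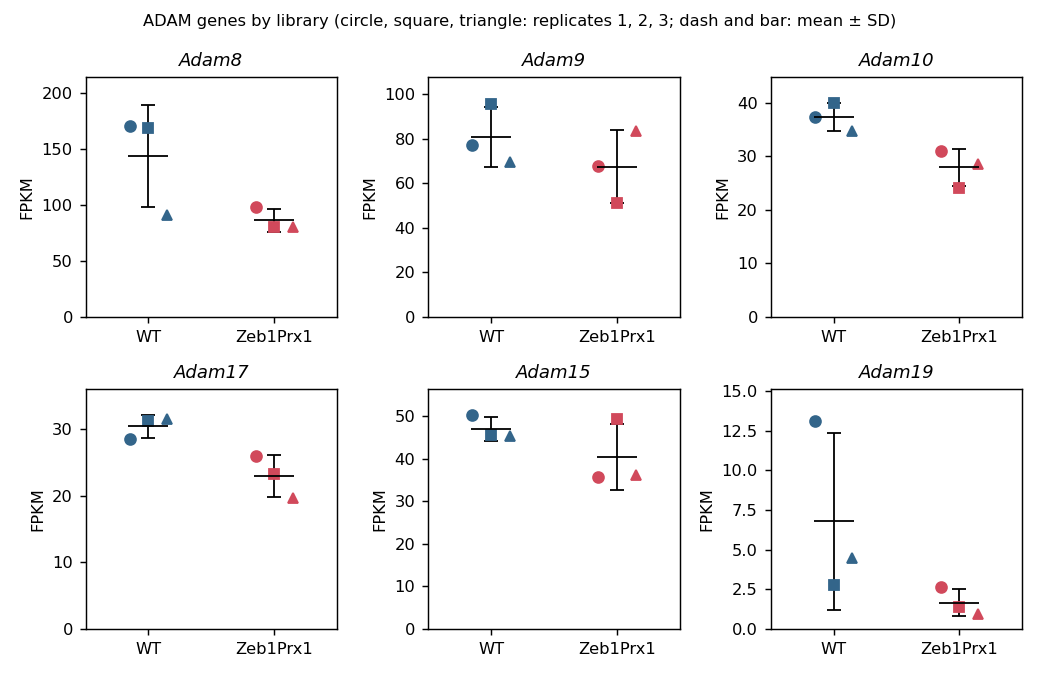
FPKM of 6 ADAM genes in WT (blue) and Zeb1Prx1 (red), with 1 point per library, the mean as a dash and the SD as a bar, each axis starting at 0. For Adam10, Adam17 and Adam19 every red point lies below every blue one, while Adam8, Adam9 and Adam15 overlap.

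Macrophage and monocyte markers lay on the same side of 0 as the ADAMs. Of the 12 listed markers, 9 had a log2 change below 0, with a median of -0.44, and 5 were lower at an unadjusted p under 0.05, where 48.1% of all tested genes were below 0 and 6.98% lower at that p. Adgre1 (F4/80), with the lowest log2 change of the 12 (-0.81), had 215, 230 and 250 FPKM across the WT libraries and 164, 119 and 117 across the mutant ones. The 3 above 0 were Lyz2 (9542 ± 1256 against 10853 ± 4893), Tyrobp (289 ± 19.7 against 345 ± 185) and Aif1 (11.98 ± 3.99 against 13.4 ± 6.86), all with overlap. As a mean over the 12 markers, log2(FPKM + 1) reached 7.07, 7.10 and 7.27 for WT and 6.71, 7.04 and 6.55 for Zeb1Prx1, without overlap. The summed level of the list, led by Lyz2, was 10035 to 12575 FPKM in WT and 8489 to 18340 in Zeb1Prx1, with none of the 12 at 0. In bulk libraries fewer cells of a type and less RNA per cell cannot be told apart, and the part of macrophage RNA in the ADAM values was not tested.

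Genes for proteins that work with these sheddases were compared as well. Of 6 tested partners of Adam10 and Adam17, 5 had a log2 change below 0, as had 48.1% of all tested genes. An unadjusted p under 0.05 was found for 2 of them, both lower (6.98% of all tested genes), and 0 passed over all genes. Tspan5, a tetraspanin that carries Adam10 to the cell surface, had 3.96, 3.77 and 4.42 against 2.35, 2.54 and 3.46 FPKM. Rhbdf2 (iRhom2), needed for the maturation of Adam17 in macrophages, had 13.9, 15.4 and 13.7 against 12.8, 10.2 and 10.3, and Tspan14 had 40.9 ± 2.04 against 33.8 ± 4.22. These 3 genes did not overlap, as 11.8% of all tested genes did not on the lower side. Tspan17 had 19.3 ± 2.44 against 24.4 ± 6.87 FPKM, with overlap. Of 18 tested genes for shed proteins, 12 were below 0, against 48.1% of all tested genes. Among the 18, 4 had an unadjusted p under 0.05, all lower, against 6.98% of all tested genes. They were Notch1 (3.96 ± 1.27 against 1.62 ± 0.897), its ligand gene Jag1 (8.08 ± 1.13 against 5.02 ± 1.40), the interleukin 6 receptor gene Il6ra (9.24 ± 0.944 against 5.71 ± 1.87) and the macrophage receptor gene Csf1r (491 ± 63.4 against 323 ± 64.1). Their limma adjusted p lay between 0.283 and 0.308. Csf1r was also counted among the lower macrophage and monocyte markers.

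The ADAMTS genes were expressed at moderate to low levels. Of the proteoglycanases, Adamts1 had 7.92, 13.9 and 52.2 FPKM across the WT libraries and 11.9, 15.3 and 25.4 across the mutant ones. Adamts5, the main aggrecanase of mouse cartilage, had 6.62, 11.3 and 30.3 in WT and 11.97, 14.9 and 12.996 in Zeb1Prx1. Both genes lie within 108 kb of each other on chromosome 16, and both were highest in WT replicate 3 and lowest in WT replicate 1. Without WT replicate 3, the WT means were 10.9 and 8.95, below the mutant means of 17.5 and 13.3, so the sign of both log2 changes (-0.12 and -0.01 in all libraries) turned to 0.62 and 0.56. Adamts4, the other well-known aggrecanase, had 3.998, 4.45 and 3.61 against 4.53, 2.33 and 3.57 FPKM, and Adamts9 was under the filter with 457 fragments in WT and 564 in Zeb1Prx1.

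Adamts2, which removes the amino-terminal propeptide of fibrillar procollagens, had 11.01, 23.9 and 17.1 FPKM across the WT libraries and 14.8, 11.5 and 14.3 across the mutant ones, with overlap (log2 change -0.28, SE 0.27, limma adjusted p = 0.601). Its relative Adamts14 had 1.65 ± 0.982 against 0.841 ± 0.533 FPKM, with a WT mean of 1.09 without WT replicate 1 and a mutant mean of 0.536 without Zeb1Prx1 replicate 1. Adamts3, with the same kind of activity, had 82 fragments in WT and 157 in Zeb1Prx1. Mutant replicate 3 held 108 of the latter. The enzymes that cleave cartilage oligomeric matrix protein, Adamts7 and Adamts12, were both low. Adamts7 had 114, 186 and 153 fragments in WT and 95, 69 and 57 in Zeb1Prx1, without overlap, and the WT level was 2.15-fold the mutant level after scaling to assigned fragments. It overlaps Tbc1d2b on the opposite strand, which had 11.9 and 9.14 FPKM in the mean of WT and Zeb1Prx1. Adamts12 had 1.86, 0.721 and 1.72 against 1.117, 0.381 and 0.258 FPKM, with overlap and a mutant mean of 0.319 without Zeb1Prx1 replicate 1, and Adamts10, linked to fibrillin microfibrils, had 12.8 ± 2.37 against 9.73 ± 1.09, also with overlap. Adamts6 had 2.14 ± 0.647 against 1.44 ± 0.448 FPKM, and Adamts13, the protease of von Willebrand factor, had 3 fragments in all.

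**Figure D5:**
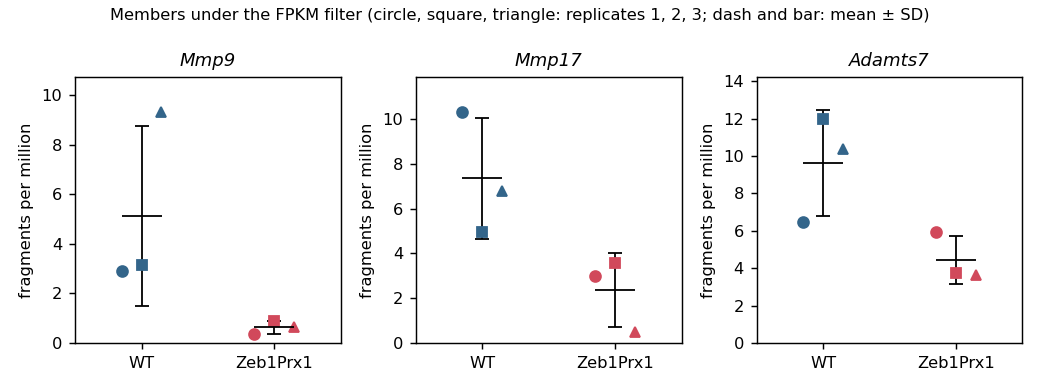
Fragments scaled to all assigned fragments (CPM, the same scale in each library) of 3 genes under the filter, Mmp9, Mmp17 and Adamts7, in WT (blue) and Zeb1Prx1 (red), with 1 point per library, the mean as a dash and the SD as a bar, each axis starting at 0. Every red point lies below every blue one in all 3 panels, and WT replicate 3 sets the high WT mean of Mmp9.

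The 47 members under the filter were low or silent. No fragment was counted for 14 of them, namely Mmp20, Adamts19, Adam28 and 11 ADAMs of the reproductive tract (Adam6a, Adam6b, Adam7, Adam20, Adam24, Adam25, Adam26a, Adam26b, Adam29, Adam34 and Adam39). Another 11 had 1 to 9 fragments in all libraries together (Mmp1b, Mmp7, Mmp24, Timp4, Adam1b, Adam2, Adam18, Adam30, Adamts8, Adamts13 and Adamts15), and 22 had 10 or more. All 21 ADAMs known mainly from testis, epididymis and sperm were among the 47, and germ cell markers were near 0 as well (0 of 8 tested). The most abundant of these ADAMs by fragments was Adam1a with 96 in WT and 69 in Zeb1Prx1, followed by Adam5 with 64 and 38. Adam3 had 30 and 37, Adam4 36 and 39, Adam32 13 and 30 and Adam21 5 and 9. Adam4 overlaps Cox16 on the same strand. Of the neural ADAMs without protease activity, Adam22 had 332 and 276 fragments and Adam11 46 and 59. Adamts16 had 22 and 10, Adamts17 9 and 13, Adamts18 6 and 10 and Adamts20 5 and 5. Of the 64 members with any fragment, genotypes did not overlap for 1 on the higher side and 8 on the lower (12.5%), against 8.01% and 8.19% of all 27230 genes with a fragment, or 16.2% in both directions together. Mmp9, Mmp17, Adamts7 and Mmp21 were the ones added to the tested members by this count. A limit of 3 fragments, which a count of 0 allows, equals 0.163 to 0.204 CPM and covers counting error only.

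Other proteins that activate or restrain metalloproteases gave no common direction. Of 16 tested genes on this list, 10 lay above 0 (median log2 change 0.08), and 1 had an unadjusted p under 0.05, against 15.1% of all tested genes. That gene was Bsg (basigin or EMMPRIN), a surface glycoprotein that induces MMPs in fibroblasts, with 279, 401 and 249 FPKM across the WT libraries and 420, 520 and 884 across the mutant ones. Each mutant library lay above each WT library (log2 change 0.93, SE 0.34, limma adjusted p = 0.302), as for 12.6% of all tested genes. The order of libraries within each genotype was the same for Bsg as for Timp1. On the lower side 1 gene of the list did not overlap, against 11.8% of all tested genes. This was Lrp1, with 183, 268 and 187 against 173, 61.5 and 155 FPKM (log2 change -0.82, SE 0.41, limma adjusted p = 0.370). Sdc4, a heparan sulfate proteoglycan that binds Adamts5, had 76.6 ± 16.9 against 135 ± 61.1 FPKM, the protease inhibitor Serpine2 57.2 ± 42.4 against 163 ± 131 (75.9 and 98.4 in mutant replicates 2 and 1, 314 in replicate 3) and the proprotein convertase Pcsk6 3.85 ± 1.96 against 5.88 ± 0.644, all with overlap. Of the 3 tested ADAMTS-like genes, which lack the protease domain, none had an unadjusted p under 0.05. They were Adamtsl3 (7.62 ± 2.23 against 11.5 ± 3.09), Adamtsl4 (12.9 ± 1.93 against 14.2 ± 5.45) and Adamtsl5 (6.59 ± 0.133 against 6.30 ± 2.13).

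Genes for the matrix that these enzymes cleave lay on both sides of 0. Of 16 tested, 3 were higher and 4 lower at an unadjusted p under 0.05 (8.15% and 6.98% of all tested genes), and 0 passed over all genes. Col2a1, the cartilage collagen cleaved by Mmp13, had 1.17 to 5.32 FPKM in WT and 383, 60.0 and 1175 in Zeb1Prx1. Acan, the substrate of the aggrecanases, had 0, 0.906 and 0.0610 in WT and 21.8, 1.28 and 121 in Zeb1Prx1. In mutant replicate 3, where both were highest, Adamts4 and Adamts5 had 3.57 and 12.996 FPKM, within the range of the other libraries, and Mmp3 and Mmp13 had their highest values. Mmp13 varied little over the mutant libraries (400, 337 and 414 FPKM), unlike Col2a1 and Acan. On the lower side stood Col4a2 of basement membranes (45.3 ± 30.0, or 28.0 without WT replicate 1, against 13.3 ± 4.37) and Vwf (2.21 ± 0.442 against 1.22 ± 0.290). The summed chondrocyte markers were 14.96, 206 and 155 FPKM across the WT libraries and 558, 152 and 2441 across the mutant ones, of which the matrix protein Comp gave 3.13, 195 and 144 in WT and 121, 78.3 and 965 in Zeb1Prx1. As a mean over the 12 markers, log2(FPKM + 1) was 0.81, 1.35 and 1.21 against 2.83, 1.83 and 5.12, without overlap. All 7 tested chondrocyte markers were above 0 (median log2 change 2.17), 5 of them at an unadjusted p under 0.05, where 8.15% of all tested genes were higher. Their part in the Mmp3 and Mmp13 values was not tested.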

How the data were processed

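RNA-seq of 3 WT and 3 Zeb1Prx1 libraries was analysed from 1 table in which the authors deposited FPKM per gene, with names, coordinates and gene lengths (per the file headers). Per the submitters' processing notes the genome build is mm10. The sources used here do not give the aligner, counter, strand setting or annotation. All 78 members occur in GENCODE M21, 77 with identical coordinates. Fragments were recovered as FPKM times gene length over the smallest step of each library, and 127408 of 127408 non-zero values came out whole within a relative tolerance of 1e-06. Members and lists were chosen with earlier results of these data known.

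The test was limma (3.58.1, run in R 4.3.3), fitted to log2(FPKM + 1) with trended variance and no block, Benjamini-Hochberg over 12534 genes, threshold 0.05. It was also run on simulated counts with the same spread in every library. The real libraries differ in spread (limma weights 0.226 to 2.82), so that run does not show how the test performs on them. Folds on this scale understate changes of low genes. The genes given in full were members at an unadjusted p under 0.05 or without overlap, the 2 highest of each family and every TIMP, besides Zeb1 and up to 4 genes per list with the smallest p; other members with values were chosen after their values were seen. Alternatives were a pseudocount of 0.1, no filter, a mean of at least 5 FPKM, equal FPKM sums, median-of-ratios scaling, a replicate block, library weights, voom on recovered fragments, and leaving out each library. No count model other than voom was used. Promoters came from RefSeq (GRCm38.p6). Genes with close copies (Mmp3 and Mmp10, Adam6a and Adam6b) are uncertain to that extent.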

Additional observations from a re-analysis of the deposited data

How the results depend on the processing

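In each of the 14 alternatives, 0 members passed over all genes (lowest limma adjusted p 0.0541). Over all genes, 447 passed with library weights and 1 without Zeb1Prx1 replicate 2. Members at an unadjusted p under 0.05 (7) were 14 with library weights and 3 to 6 when a library was left out. Members without overlap (5) were 9 with no filter, 3 at a mean of at least 5 FPKM, 8 after equal FPKM sums, and 8 to 11 without 1 library, where fewer libraries overlap less often by construction. Median log2 changes without 1 library were 0.046 to 0.16 for MMPs, -0.41 to -0.37 for ADAMs, -0.46 to -0.25 for ADAMTSs, 0.72 to 1.33 for TIMPs; that of the ADAMs was -0.084 with no filter and -0.52 after equal FPKM sums, and that of the ADAMTSs -0.035 with no filter, where genes near 0 enter. The MMP median turned to -0.013 after equal FPKM sums and -0.019 with no filter, and the TIMP median was 0.61 with no filter. 21 of 31 members kept the sign of the log2 change in every alternative that tested them, among them all those at an unadjusted p under 0.05. The sign turned for 10; without 1 library their log2 change spanned -0.15 to 0.44 for Adam12, -0.67 to 0.62 for Adamts1, -0.46 to 0.56 for Adamts5, -0.36 to 0.0044 for Adamts4, -0.18 to 0.25 for Mmp2, -0.024 to 0.37 for Mmp14, -0.33 to 0.19 for Mmp19, -0.33 to 0.071 for Mmp12, -0.27 to 0.38 for Mmp8, -0.15 to 0.16 for Timp2. It was 0.0084 for Adamts5 with a pseudocount of 0.1, -0.013 for Mmp14 with an equal FPKM sum, -0.15 for Mmp14 with library weights, 0.30 for Mmp19 with library weights, 0.15 for Mmp12 with library weights, 0.19 for Timp2 with library weights. The cause was not tested. Replicate numbers did not pair the libraries (correlations of same-numbered deviations 0.0289, -0.4132 and 0.0798); with the replicate block 6 members had an unadjusted p under 0.05 and 0 passed.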
